A study of Mus musculus with 221 samples.

Results

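The 10 genes described here belong to the Notch pathway and were followed through 221 single-cell transcriptomes of mouse medial neocortex. They are the receptors Notch1 and Notch2, the ligands Dll1, Dll3 and Jag1, the glycosyltransferase Mfng and the target genes Hes1, Hes5, Hey1 and Nrarp. These members were chosen by name, with earlier results of these data known, and are 10 of the 23244 features in the table. The cells came from C57BL/6J embryos at E18.5, with the sex labelled female, and the labels name no treatment and no introduced allele. Each of 2 pools joined the microdissected medial neocortices of 8 embryos into 1 cell suspension, so single animals cannot be told apart, and the pool is the replicate (n = 2 for each group of cells). Pool 1 gave 122 cells and pool 2 gave 99, captured on a microfluidic chip (Fluidigm C1) and read from full-length cDNA. Values are TPM, a transcript level scaled for gene length and to a total of 1000000 per cell.

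Notch is a receptor that is cut when it meets a ligand on a neighbouring cell, and its released intracellular part joins the DNA-binding protein Rbpj to switch on genes such as Hes1, Hes5, Hey1 and Nrarp. The Hes and Hey proteins repress proneural factors such as Neurog2, which in turn switch on Delta ligands, so that in the embryonic cortex radial glia (the stem cells) keep the pathway on while cells that begin to differentiate present the ligand. Fringe enzymes such as Mfng and Lfng add sugars to Notch and alter which ligands it answers.

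No value in the table is 0. The lowest value of a cell, held by every feature with no signal there, lay between 1.33 and 3.0 TPM (median 1.83). This value is called the floor, and a gene was taken as detected in a cell when it was above it. Between 2146 and 6727 features were detected per cell (median 4035). Read numbers were not part of the values used here, so the depth per cell is unknown. No Notch gene was used to sort the cells into classes. Radial glia-gated cells (24; 15 in pool 1 and 9 in pool 2) had at least 5 of 8 glial markers without Eomes, and Eomes-positive cells (34; 18 and 16) had Eomes, the factor of intermediate progenitors. Neurod1-positive cells without Eomes (58; 28 and 30) had this factor of newborn neurons, excitatory neuron-gated cells (75; 44 and 31) had at least 3 of 6 markers, and interneuron-gated cells (28; 15 and 13) had at least 4 of 8. Only 2 cells met no gate. The radial glia gate is mixed: Neurod6, a transcription factor of excitatory neurons, had a median of 519 TPM in it and reached 100 TPM in 16 of the 24 cells. Neurod6 was not limited to that gate. Its median was 1458 TPM in Eomes-positive cells, where 32 of 34 reached 100 TPM, and 1690.5 TPM in excitatory neuron-gated cells. Among interneuron-gated cells 15 of 28 reached 100 TPM. Counts of called genes that rest on the radial glia gate are therefore also given for other gates, as are detection counts of Notch1, Nrarp, Dll1 and Mfng. Markers of oligodendrocyte precursors were detected in 10 of the 24 radial glia-gated and 11 of the 34 Eomes-positive cells, with a summed level above the floor of up to 2222 TPM. In radial glia-gated cells these were Olig1 in 9, Olig2 in 6, Pdgfra and Cspg4 in 1 each and Sox10 in 0. The same genes were in 8, 5, 2, 1 and 1 Eomes-positive cells. All 5 endothelial markers were at the floor in every cell. One Eomes-positive cell of pool 2 carried all 5 microglia markers with a sum of 8708 TPM. The part of these other cell types in the results was not tested, apart from leaving out that 1 cell.

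Promoters of 3 members are shown because their genes stand for the target side and the ligand side of the pathway: Hes5 and Nrarp as targets, and Dll1 as the ligand. Each line is the 250 bases before the RefSeq start site on the gene's own strand (GRCm38.p6). Capitals mark matches, on either strand, to TGGGAA in Hes5 (the core read by Rbpj), to CACNAG in Nrarp (the N-box read by Hes proteins) and to CANNTG in Dll1 (the E-box read by proneural factors).
Hes5: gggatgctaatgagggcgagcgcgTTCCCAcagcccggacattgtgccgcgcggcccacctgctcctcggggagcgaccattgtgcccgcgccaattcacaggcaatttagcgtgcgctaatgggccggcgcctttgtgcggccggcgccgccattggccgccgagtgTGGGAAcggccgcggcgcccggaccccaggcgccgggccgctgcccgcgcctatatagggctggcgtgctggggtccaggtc
Nrarp: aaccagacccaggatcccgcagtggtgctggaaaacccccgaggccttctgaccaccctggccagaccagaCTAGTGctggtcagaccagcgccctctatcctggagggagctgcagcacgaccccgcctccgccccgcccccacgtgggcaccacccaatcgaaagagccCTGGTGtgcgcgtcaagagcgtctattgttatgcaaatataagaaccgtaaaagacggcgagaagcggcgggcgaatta
Dll1: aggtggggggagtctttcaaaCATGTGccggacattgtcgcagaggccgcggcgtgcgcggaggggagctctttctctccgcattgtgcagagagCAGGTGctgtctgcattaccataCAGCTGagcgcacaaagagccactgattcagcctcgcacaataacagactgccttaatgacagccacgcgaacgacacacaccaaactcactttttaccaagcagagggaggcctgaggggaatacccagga
The Hes5 window lies at chr4:154960673-154960922 on the plus strand, directly before the gene. Its 2 TGGGAA matches begin 226 and 82 bases before the start site and face opposite ways. Of 32851 promoter windows of this length, 21.6% hold at least 1 such match and 2.77% at least 2. The Nrarp window (chr2:25180508-25180757, plus strand) has 2 CACNAG matches, at 179 and 79 bases, and no TGGGAA. Of all windows 36.7% hold at least 1 CACNAG and 8.18% at least 2. The Dll1 window (chr17:15376933-15377182, minus strand, at the more upstream of 2 listed starts) has 3 CANNTG matches, at 229, 155 and 132 bases. Of all windows 66.2% have at least 1 and 12.2% at least 3. The window at the other Dll1 start has 1 CANNTG match. None of the capitalised matches overlaps a match to another of the 3 motifs. The annotated genes (GENCODE, GRCm38) span chr4:154960923-154962371 for Hes5, chr2:25180758-25183339 for Nrarp and chr17:15367354-15376872 for Dll1. Mfng lies at chr15:78755882-78773475, Notch1 at chr2:26457903-26516663, Hes1 at chr16:30064384-30067796 and Hey1 at chr3:8663359-8667256. These matches describe letters only, and binding was not measured.

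With both pools joined, the share of cells with a receptor or target gene was highest in radial glia-gated and next highest in Eomes-positive cells. With the radial glia gate at 4 of 8 markers this order turned for Notch1 and Nrarp. They were then in 16 and 21 of 41 radial glia-gated cells, against 16 and 19 of 34 Eomes-positive cells. At 6 of 8 markers they were in 13 and 11 of 15. The share with Mfng was highest in Eomes-positive cells, while the ligands were in a few cells of nearly all classes. In pool 2 alone the order differed for 2 genes. There Hes5 was in 7 of 9 radial glia-gated, 15 of 16 Eomes-positive and 24 of 31 excitatory neuron-gated cells. Nrarp was in 5 of 9 radial glia-gated and 10 of 16 Eomes-positive cells of that pool. Over both pools Hes5 was also detected in 34 of 75 excitatory neuron-gated, 19 of 58 Neurod1-positive and 10 of 28 interneuron-gated cells. Over all 221 cells Hes5 was detected in 106, Hes1 in 74, Nrarp in 55, Mfng in 49, Notch1 in 41, Hey1 in 34, Dll3 in 26, Notch2 in 19, Dll1 in 15 and Jag1 in 7. In every class each member was at the floor in at least 1 cell, so the lowest value of a class is always a floor value and the medians and highest values carry the difference. In these data a lower mean can come from fewer cells with a gene or from less of it per cell, and both are given.

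**Figure D1:**
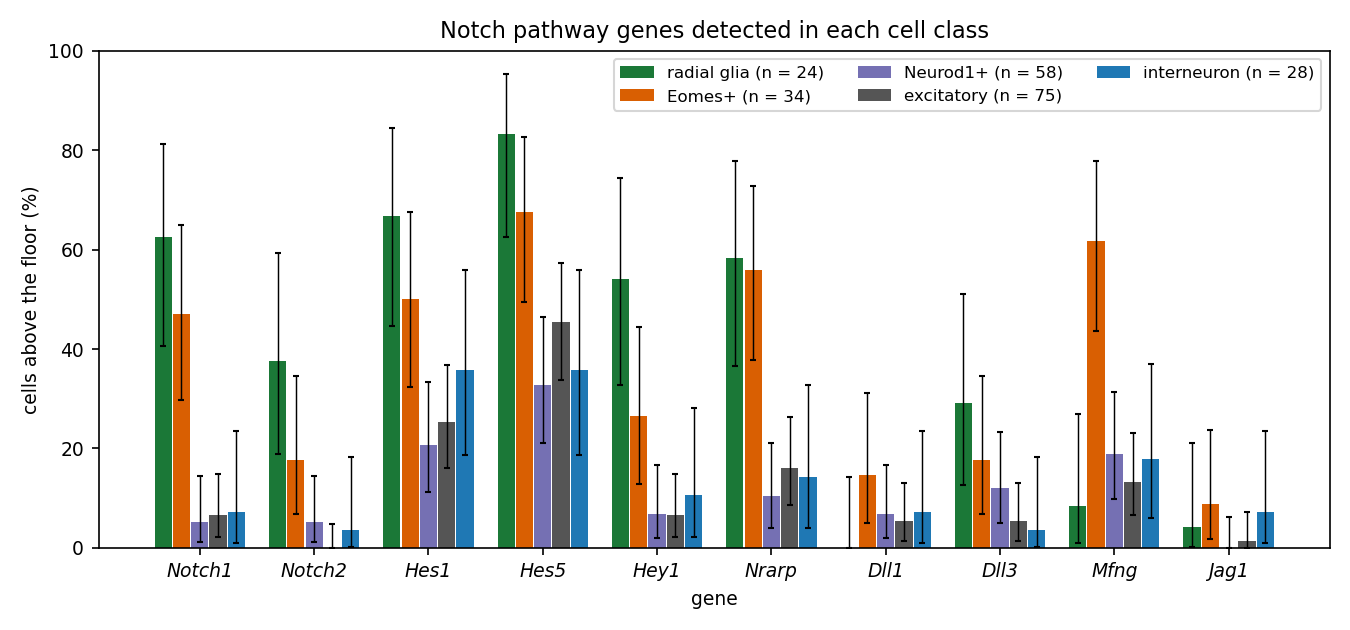
Share of cells with each Notch gene above the floor (y axis, percent), by gene (x axis) and class (colours), with exact Clopper-Pearson 95% intervals that cover counting error only. The radial glia bars are the tallest for Notch1, Notch2, Hes1, Hes5, Hey1, Nrarp and Dll3, while Mfng peaks in Eomes-positive cells (21 of 34) and the Dll1 bar of radial glia is at 0.

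Notch1, the main receptor of cortical stem cells, was detected in 15 of 24 radial glia-gated cells (62.5%, exact 95% interval 40.6 to 81.2%) and 16 of 34 Eomes-positive cells (47.1%, 29.8 to 64.9%). Its median was 6.58 TPM in the former (highest 93.3) and 2.43 TPM in the latter (highest 49.6). The second of these medians lies within the range of floor values, as do those of the other classes, where 3 of 58 Neurod1-positive, 5 of 75 excitatory neuron-gated and 2 of 28 interneuron-gated cells had it. The single highest value, 97.9 TPM, came from a Neurod1-positive cell. The pool means of radial glia-gated cells (20.1 and 22.2 TPM) lay above those of excitatory neuron-gated cells (1.99 and 2.0 TPM), while single cells of the classes overlapped.

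Notch2, a receptor with much the same domains, was the rarer of the pair. Detection came to 9 of 24 radial glia-gated cells (highest 96.2 TPM), 6 of 34 Eomes-positive cells (highest 41.9 TPM), 3 of 58 Neurod1-positive cells and 1 of 28 interneuron-gated cells. In excitatory neuron-gated cells it was detected in 0 of 75, which allows a share of up to 4%. Its mean TPM was 12.6 and 9.23 in the radial glia-gated cells of pools 1 and 2, and 3.94 and 6.82 in the Eomes-positive cells. Of the 19 cells with Notch2, 13 also had Notch1 and 17 had Hes5.

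Hes5, the target most closely tied to Notch in the cortex, had the highest levels of the 10 members. In radial glia-gated cells it was detected in 20 of 24 with a median of 764 TPM and a highest value of 5360, and in Eomes-positive cells in 23 of 34 with a median of 162 TPM and a highest value of 5028. Its pool means were 947 and 1614 TPM in the first class and 625 and 1278 TPM in the second, so these 2 classes overlapped. No cell of the 3 neuronal classes exceeded 651 TPM.

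Hes1, a target that other signals can also induce, was detected in 16 of 24 radial glia-gated cells (median 55.7 TPM, highest 586) and 17 of 34 Eomes-positive cells (median 2.84 TPM, within the range of floor values, highest 816). It remained detectable in 19 of 75 excitatory neuron-gated and 10 of 28 interneuron-gated cells, with highest values of 235 and 146 TPM. Only 8 and 1 of these cells reached 20 TPM, and the second highest interneuron-gated value was 11 TPM. Hey1, a related repressor, was more restricted: it was detected in 13 of 24 radial glia-gated cells with a median of 96.1 TPM and a highest value of 397, and in 9 of 34 Eomes-positive cells with a floor-level median and a highest value of 303. Nrarp, which dampens Notch by binding the receptor's intracellular part, differed from both in that its shares in radial glia-gated cells (14 of 24) and Eomes-positive cells (19 of 34) were close. The median Nrarp level was 64.9 TPM in the former (highest 493) and 36.0 TPM in the latter (highest 337). In Neurod1-positive cells 6 of 58 had Nrarp.

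**Figure D2:**
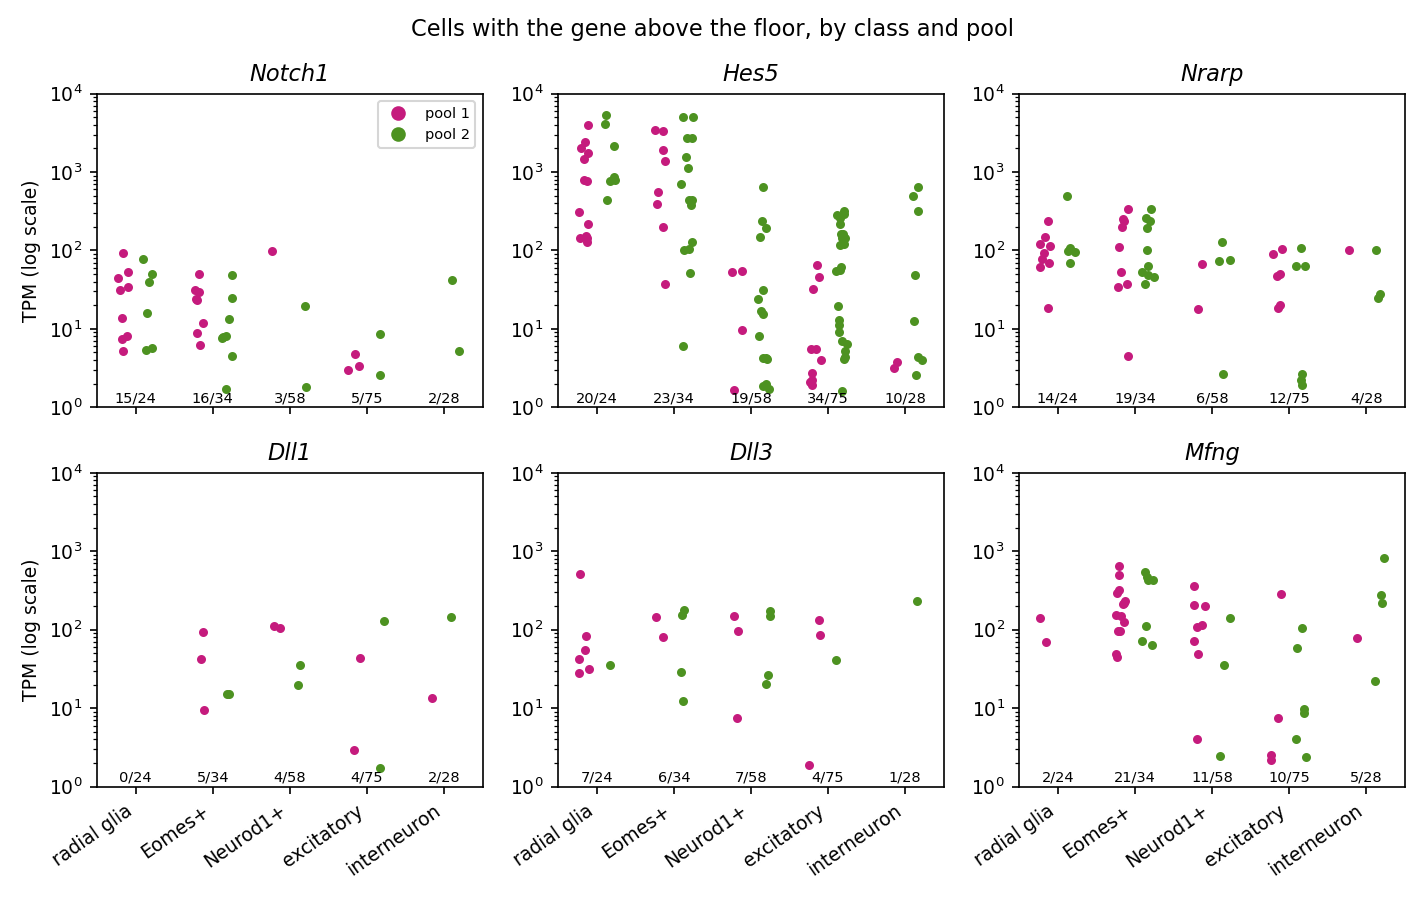
TPM (log axis) of every cell above the floor for 6 members, by class (x axis) and pool (colour), with the number detected of the class total printed at the bottom of each column; cells at the floor are not drawn. Hes5 reaches 5360 TPM in radial glia and 651 TPM in interneurons, most of its neuronal points belong to pool 2, and the Dll1 column of radial glia is empty.

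In the neuronal classes Hes5 was detected more often in pool 2. Excitatory neuron-gated cells had it in 10 of 44 in pool 1 and in 24 of 31 in pool 2, with mean levels of 5.27 and 80.1 TPM. Interneuron-gated cells had it in 2 of 15 and 8 of 13, and Neurod1-positive cells in 4 of 28 and 15 of 30. Eomes-positive cells had it in 8 of 18 and 15 of 16. Radial glia-gated cells had it in 13 of 15 in pool 1 and 7 of 9 in pool 2, so there the pools were close. In excitatory neuron-gated cells other glial genes did not all follow. Hes1 was detected there in 7 of 44 and 12 of 31 cells and Slc1a3, a glial glutamate transporter, in 7 of 44 and 14 of 31. Sox9, a factor of glial progenitors, was in 4 of 44 and 3 of 31, and Fabp7, a lipid-binding protein of radial glia, had medians of 347 and 329 TPM. In Neurod1-positive and interneuron-gated cells, however, Sox9 and Fabp7 were both higher in pool 2. Fabp7 medians were 209 and 493 TPM in the former and 159 and 923 TPM in the latter. Sox9 was in 2 of 28 and 5 of 30 Neurod1-positive cells, and in 1 of 15 and 5 of 13 interneuron-gated cells. Eomes-positive cells had Sox9 in 10 of 18 and 10 of 16, with Fabp7 medians of 1640 and 1906 TPM. Since each pool is a separate set of embryos and a separate preparation, animals and handling cannot be told apart.

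Delta ligands were rare and thinly spread. Dll1, the ligand that activates Notch on neighbours, was detected in 15 cells: 5 of 34 Eomes-positive, 4 of 58 Neurod1-positive, 4 of 75 excitatory neuron-gated and 2 of 28 interneuron-gated cells. Among radial glia-gated cells it was detected in 0 of 24, which allows a share of up to 12.5%. With that gate at 4 of 8 markers Dll1 was in 1 of 41 cells, and at 6 of 8 in 0 of 15. The 15 Dll1 values ran from 1.71 TPM, just above the floor, to 146 TPM in an interneuron-gated cell, and the highest Eomes-positive value was 94.3 TPM. Dll3, a divergent Delta protein that stays inside the cell and does not activate Notch on neighbours, was detected in 26 cells. These were 7 of 24 radial glia-gated, 6 of 34 Eomes-positive, 7 of 58 Neurod1-positive, 4 of 75 excitatory neuron-gated and 1 of 28 interneuron-gated cells and 1 of the 2 cells outside the gates. The highest Dll3 value, 506 TPM, came from a radial glia-gated cell of pool 1, and the other 6 radial glia-gated cells with Dll3 lay between 28.2 and 83.3 TPM. Of these 7 cells 6 were in pool 1.

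Both ligands were in no cell together: 0 of 221 had Dll1 and Dll3, which allows a share of up to 1.36%. With 15 and 26 cells of either kind, this does not show that such cells are absent. Jag1, a ligand of the Serrate type, was detected in 7 cells at 4.96 to 25.2 TPM, of which 3 were Eomes-positive, 2 interneuron-gated, 1 radial glia-gated and 1 excitatory neuron-gated. The highest Jag1 value came from the Eomes-positive cell with microglia markers, which is also 1 of the 5 Eomes-positive Dll1 cells (15.1 TPM). Of the 7, 5 had Notch1 and 6 had Hes1. At 3.17% of cells it was below the minimum of 10 cells set for the tests and was not tested.

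Mfng had its highest share in the Eomes-positive class. It was above the floor in 21 of 34 of these cells (61.8%, exact 95% interval 43.6 to 77.8%) with a median of 84.1 TPM and a highest value of 657. In radial glia-gated cells only 2 of 24 had it, both in pool 1, with a highest value of 142 TPM. With that gate at 4 of 8 markers Mfng was in 6 of 41 cells, and at 6 of 8 in 2 of 15. Neurod1-positive cells had it in 11 of 58, excitatory neuron-gated cells in 10 of 75 and interneuron-gated cells in 5 of 28, where 1 cell reached 814 TPM. By pool, the Eomes-positive mean was 176 and 133 TPM, and the Neurod1-positive mean was 41.0 and 7.57 TPM.

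The classes were then compared with limma on the mean log2(TPM + 1) of each class in each pool. A gene was called at a Benjamini-Hochberg adjusted p below 0.05 over 10723 genes together with a log2 difference of at least 1, and 9 of the 10 members passed the filter on low values. Such differences are on the log2(TPM + 1) scale and understate the change of low genes. The p-values rest on 2 pools per class.

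Radial glia-gated cells had more of the receptor Notch1 and of all 4 target genes than excitatory neuron-gated cells. Called higher were 5 of the 9 members tested, beside 2.49% of all genes (2.88% in either direction). The members were chosen with earlier results of these data known. Their count and their median are therefore a description and no independent support. Hes5 was higher by 5.10 ± 1.02 on the log2 scale (SE; limma adjusted p = 0.0155), and by 6.27 in pool 1 and 3.92 in pool 2. Hey1 was higher by 3.16 ± 0.54 (limma adjusted p = 0.00701) and Hes1 by 3.06 ± 0.51 (limma adjusted p = 0.00662). Nrarp was higher by 2.52 ± 0.46 (limma adjusted p = 0.0092) and Notch1 by 1.85 ± 0.32 (limma adjusted p = 0.00782). All 5 were higher in both pools. Notch2 passed the p but not the size, with 0.97 ± 0.20 (limma adjusted p = 0.0199). The ligands did not pass: Dll3 differed by 0.88 ± 0.40 (limma adjusted p = 0.308), with 1.54 in pool 1 and 0.23 in pool 2, and Dll1 by -0.20 ± 0.19. Mfng differed by -0.05 ± 0.64. Of the listed markers of oligodendrocyte precursors, Olig1 was higher in the same comparison by 2.14 ± 0.38 (limma adjusted p = 0.00807) and Olig2 by 1.46 ± 0.32 (limma adjusted p = 0.0236). Their part in the members' differences was not tested. Pdgfra, Cspg4 and Sox10 were detected in 5, 3 and 2 of all cells, too few for the tests. The median over the 9 members was 1.85, against 0.01 over all genes tested.

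These 5 calls depend on the gate and other settings. At 4 of 8 markers it took in 41 cells, 33 of them with Neurod6 at 100 TPM or more, and 0 of the 9 members and 6 genes in all were called by limma (867 genes at an unadjusted p below 0.05). At 6 of 8 markers (15 cells) 6 members were called, with Notch2 at 1.42 (limma adjusted p = 0.0033). Without the radial glia-gated cells at 1000 TPM of Neurod6 or more (15 cells left) 6 were called as well. Averaging TPM before taking the log2 also left 0 members called, although Hes5 then differed by 5.78 (limma adjusted p = 0.12). With cells of 3000 to 5500 genes Hey1 lost the call (2.23, limma adjusted p = 0.059), and with pseudocount 10 Notch1 fell below the size limit (0.96, limma adjusted p = 0.0104).

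**Figure D3:**
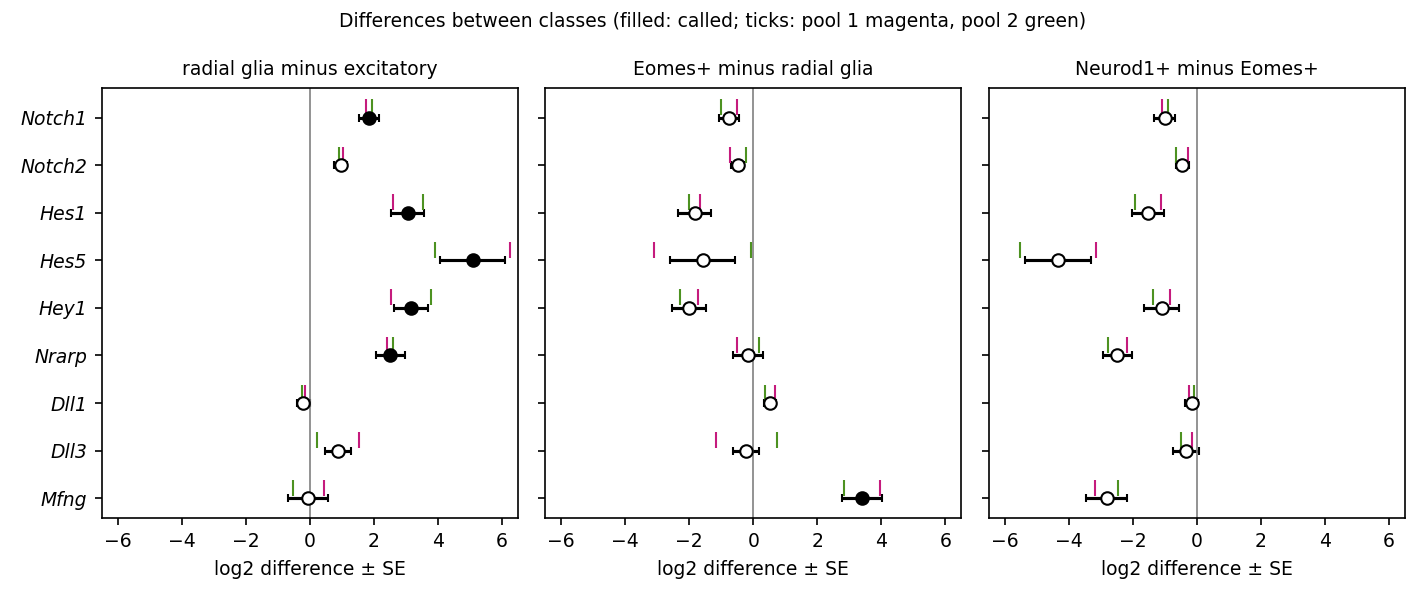
log2 difference (x axis, ± SE from limma) of the 9 members tested (y axis) in 3 comparisons of classes; filled points were called, and coloured ticks are the differences within pool 1 and pool 2. In the left panel Notch1, Hes1, Hes5, Hey1 and Nrarp are filled and right of 0, and in the middle panel only Mfng (3.40) is filled.

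Between Eomes-positive and radial glia-gated cells the member called was Mfng. It was higher in Eomes-positive cells by 3.40 ± 0.64 (SE; limma adjusted p = 0.0316), by 3.96 in pool 1 and 2.84 in pool 2. This made 1 of 9 members called, beside 0.0839% of all genes called higher and 0.373% in either direction. Lfng, the other Fringe enzyme with a called difference, went the opposite way, lower in Eomes-positive cells by -1.79 ± 0.29 (limma adjusted p = 0.0155). Lfng was detected in 11 of 24 radial glia-gated cells (highest 232 TPM) and in 3 of 34 Eomes-positive cells (highest 23.3 TPM). Targets were on average lower in Eomes-positive cells without passing the test: Hey1 by -2.01 ± 0.54 (limma adjusted p = 0.13), Hes1 by -1.83 ± 0.51 (limma adjusted p = 0.147) and Hes5 by -1.58 ± 1.02 (limma adjusted p = 0.575). The Hes5 difference was -3.09 in pool 1 and -0.06 in pool 2. Nrarp (-0.16 ± 0.46) and Notch1 (-0.75 ± 0.32) did not pass either. Dll1 differed by 0.53 ± 0.19 (limma adjusted p = 0.263), and Dll3 by -1.17 in pool 1 and 0.74 in pool 2.

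The Mfng call was lost in 5 of 15 refits, at 2.91 to 4.53 with a limma adjusted p of 0.0541 to 0.298, among them the radial glia gate at 4 of 8 markers. With that gate at 6 of 8, Hes1 (-2.79, limma adjusted p = 0.0217) and Hey1 (-2.52, limma adjusted p = 0.0337) were called lower in Eomes-positive cells. Hes1 was also called lower with pool and suffix (the letter A or B in the cell names) as units (-2.49, limma adjusted p = 0.033), and Hey1 (-2.59, limma adjusted p = 0.0245) and Notch1 (-1.59, limma adjusted p = 0.0437) without radial glia-gated cells at 1000 TPM of Neurod6.

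Against excitatory neuron-gated cells, Eomes-positive cells had higher means of all 9 members, but 0 were called by limma, beside 0.0653% of all genes. At an unadjusted p below 0.05 there were 7, as for 1055 of the 10723 genes. Mfng differed by 3.35 ± 0.64 and Nrarp by 2.36 ± 0.46 (both with a limma adjusted p of 0.0666), and Hes5 by 3.52 ± 1.02 (limma adjusted p = 0.233). Only 7 genes were called in all, led by Rnd3 (4.16 ± 0.54), a small GTPase of migrating neurons, and including Neurog2 (2.77 ± 0.39, limma adjusted p = 0.0132). With the pool as a block 4 genes were called, and without the cell with microglia markers 11, among them Mfng (3.44, limma adjusted p = 0.0492). Mfng and Nrarp were also called with profiles weighted by cell number (limma adjusted p = 0.00357 and 0.00812), with Hes5 (0.0459), and both with the radial glia gate at 4 of 8 (0.0143 each), with genes in at least 22 cells (0.047 each) and without radial glia-gated cells at 100 TPM of Neurod6 (0.0371 and 0.0372).

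Neurod1-positive cells had lower means of all 9 members than Eomes-positive cells, in both pools. Called by limma were 0 of 9, beside 0.0187% of all genes, and 6 had an unadjusted p below 0.05, as did 983 of the 10723 genes. Nrarp differed by -2.48 ± 0.46 (limma adjusted p = 0.0877), Hes5 by -4.34 ± 1.02 and Mfng by -2.82 ± 0.64 (both with a limma adjusted p of 0.163), and Dll1 by -0.16 ± 0.19. The genes called were Neurog2 (-2.69 ± 0.39, limma adjusted p = 0.0373) and Gng5, a G protein subunit (-3.35 ± 0.51), and Neurog2 kept the call in 10 of 16 refits. With profiles weighted by cell number Nrarp (limma adjusted p = 0.0175), Mfng (0.0231) and Hes5 (0.0418) were called lower, as were Nrarp (0.0161) and Mfng (0.0405) with the radial glia gate at 4 of 8, and Nrarp (0.0444) without radial glia-gated cells at 100 TPM of Neurod6. These comparisons share the Eomes-positive cells or the excitatory neuron-gated cells and are not independent of each other.

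Interneuron-gated and excitatory neuron-gated cells did not differ in any member past the test. Called by limma were 0 of 9 members, 0 also at an unadjusted p below 0.05, beside 0.662% of all genes (0.42% higher and 0.242% lower). Differences ran from -0.46 ± 1.02 for Hes5 to 0.83 ± 0.64 for Mfng.

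Beyond the members, Lfng and Fabp7 were the pathway genes called between classes. Of 45 further genes listed by role, 35 passed the filter, and 2 were called higher in radial glia-gated than in excitatory neuron-gated cells: Lfng (1.87 ± 0.29, limma adjusted p = 0.0041) and Fabp7 (5.21 ± 0.71, limma adjusted p = 0.00235), a Notch target gene in radial glia. Over all genes 2.49% were called higher there. The median of the 35 was -0.04. None of the 9 cleavage genes was called, with Adam10, the protease that makes the first cut after ligand binding, at 1.01 ± 0.44 (limma adjusted p = 0.279). Rbpj was detected in 10 of 24 radial glia-gated, 16 of 34 Eomes-positive and 30 of 75 excitatory neuron-gated cells and differed by -0.04 ± 0.47 between the first and the last. The antagonist Numb (-0.32 ± 0.22) and Mib1, which ubiquitinates the ligands (-0.14 ± 0.17), did not pass. Other receptors and ligands were sparse: Notch3 was detected in 1 of 24 radial glia-gated and 3 of 34 Eomes-positive cells, Dll4 in 0 and 1, and Jag2 in 2 and 0. Hes6, a Hes protein that opposes Hes1, was in 21 of 24 and 33 of 34 with medians of 313 and 440 TPM, and differed by 1.02 ± 0.45 between Eomes-positive and radial glia-gated cells (limma adjusted p = 0.375). In the comparison of these classes Lfng was the 1 gene of the 35 that was called.

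Among proneural genes Neurog2 was the one called between Eomes-positive and radial glia-gated cells. Neurog2, the proneural factor of cortical excitatory lineages, was detected in 20 of 34 Eomes-positive cells (median 52.6 TPM, highest 925) and 3 of 24 radial glia-gated cells (highest 64.2 TPM), and was higher in the former by 3.21 ± 0.39 (limma adjusted p = 0.00403). It was 1 of 9 proneural genes tested there, beside 0.0839% of all genes called higher. Insm1, a factor of basal progenitors, differed by 2.23 ± 0.49 (limma adjusted p = 0.0607). Of 11 progenitor genes, 10 were called higher in radial glia-gated than excitatory neuron-gated cells, beside 2.49% of all genes. Among them were Hopx (4.92 ± 0.57) and Id1 (4.69 ± 0.66). This list was chosen with earlier results of these data known, and the class was gated by glial markers. The count is therefore a description and no independent support for the gate. Id1, Id3 and Hopx were called lower in Eomes-positive than in radial glia-gated cells, beside 0.289% of all genes. The last 3 calls were unsteady: of 15 refits with other settings Id1 kept the call in 4 (limma adjusted p up to 0.65), Hopx in 8 (up to 0.578) and Id3 in 11 (up to 0.279). Of 9 cell cycle genes, 5 were called higher in radial glia-gated than excitatory neuron-gated cells, beside the same 2.49% of all genes. Cdk1 was 1 of the 5 (2.84 ± 0.66, limma adjusted p = 0.0325) and kept the call in 9 of 15 refits.

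Cells were next grouped by the pathway itself. A cell with Dll1 or Dll3 was a ligand cell (41; 23 in pool 1 and 18 in pool 2). A cell without either but with at least 2 of Notch1, Notch2, Hes1, Hes5, Hey1 and Nrarp was a receptor and target cell (60; 22 in pool 1 and 38 in pool 2). The remaining 120 cells met neither rule. Of all cells, receptor and target cells made up 18.0% in pool 1 and 38.4% in pool 2, and ligand cells 18.9% and 18.2%. Radial glia-gated cells split into 7 ligand and 16 receptor and target cells, with 1 in the rest, Eomes-positive cells into 11, 14 and 9, and excitatory neuron-gated cells into 8, 15 and 52.

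Ligands were often detected in the same cells as receptor and target genes. Of the 41 ligand cells 32 had at least 1 of the 6 receptor and target genes and 24 (58.5%) had at least 2. Among the 180 cells without a ligand 60 (33.3%) had at least 2. Notch1 was detected in 13 of the 41 ligand cells, Hes5 in 24, Hes1 in 20, Nrarp in 17 and Hey1 in 13. Ligand cells had a median of 4318 detected genes and the cells without a ligand 3991, and the part of this gap in the overlap was not tested.

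**Figure D4:**
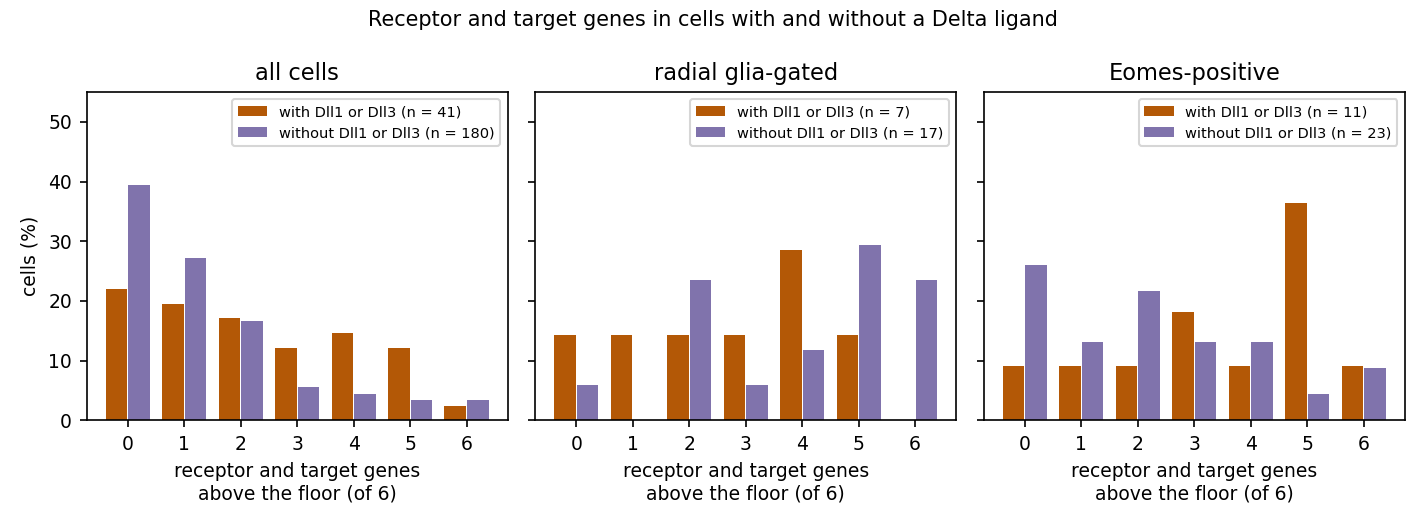
Share of cells (y axis, percent) by the number of the 6 receptor and target genes above the floor (x axis), for cells with and without Dll1 or Dll3, over all cells and within radial glia-gated and Eomes-positive cells. Over all cells the bar at 0 genes is lower with a ligand (9 of 41 cells) than without (71 of 180), whereas in radial glia the bars at 5 and 6 genes are higher without a ligand.

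Within the progenitor classes the counts pointed in opposite directions, a difference that was not tested. In Eomes-positive cells the median number of the 6 genes was 4 in the 11 ligand cells and 2 in the other 23, and at least 2 were found in 9 of 11 and 14 of 23. Nrarp was detected in 9 of 11 against 10 of 23, Notch1 in 7 of 11 against 9 of 23 and Neurog2 in 8 of 11 against 12 of 23. The median of detected genes was 4903 in these ligand cells and 4190 in the others, and its part was not tested. In radial glia-gated cells there was a median of 3 of the 6 genes in the 7 cells with Dll3 and 5 in the 17 without a ligand. Hes1 was detected in 3 of the 7 and 13 of the 17, Notch1 in 3 and 12, and Hes5 in 5 and 15. Neurog2 was found in 3 of the 7 and 0 of the 17, and Mfng in 2 and 0. The median of detected genes was 4249 in the 7 cells and 4641 in the 17, so this gap also ran opposite to that in Eomes-positive cells. Its part was not tested. These counts compare cells within 1 class, 6 of the 7 cells come from pool 1, and no test was made.

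In Neurod1-positive cells at least 2 of the 6 genes were present in 2 of 11 ligand cells and 9 of 47 others. In excitatory neuron-gated cells this held for 6 of 8 ligand cells and 15 of 67 others. The median of detected genes in ligand cells and others was 4163 and 4020 in the Neurod1-positive class. It was 4434 and 3939 in the excitatory neuron-gated class, and the part of these gaps was not tested. By ligand, 10 of the 15 Dll1 cells and 14 of the 26 Dll3 cells had at least 2 of the 6.

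Fabp7 was the 1 gene called between ligand cells and receptor and target cells. Its median was 636 TPM in the 41 ligand cells (highest 29395) and 1731 TPM in the 60 receptor and target cells (highest 76852), and it was detected in 39 of 41 and 60 of 60. Fabp7 was lower in ligand cells by -2.15 ± 0.28 (SE; limma adjusted p = 0.0178), by -2.44 in pool 1 and -1.86 in pool 2, though single cells of the groups overlapped throughout. It was 1 of 10738 genes, or 0.00931%, and 869 had an unadjusted p below 0.05. The grouping asks for at least 2 of the 6 receptor and target genes in 1 group only, and 24 of the 41 ligand cells had as many. Fabp7 is itself a Notch target. The part of this rule in the difference cannot be told apart from that of the ligands. The 8 genes that define the groups were left out, so Mfng was the 1 member tested, with 0.81 ± 0.37 (limma p = 0.0474, adjusted p = 0.61). Of the lists, 6 of 9 cell cycle genes and 6 of 11 progenitor genes had an unadjusted p below 0.05, and 0 of either passed the adjustment, for example Cdk1 (-1.62 ± 0.35, limma adjusted p = 0.376) and Tnc, an extracellular matrix protein of radial glia (-1.15 ± 0.29, limma adjusted p = 0.402). The medians of these lists were -0.78 and -0.88, against 0.05 over all genes tested.

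**Figure D5:**
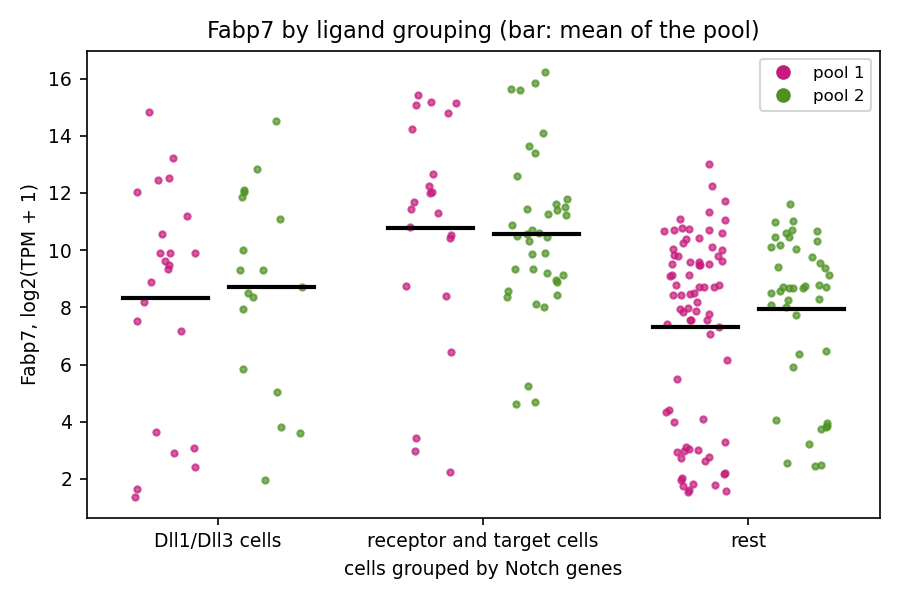
Fabp7 as log2(TPM + 1) (y axis) in every cell, by ligand grouping (x axis) and pool (colour), with bars at the mean of each pool. The bars of the receptor and target cells lie above those of the ligand cells by 2.44 in pool 1 and 1.86 in pool 2, and the points overlap.

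Class makeup differs between these groups: 16 of the 60 receptor and target cells and 7 of the 41 ligand cells were radial glia-gated, the class with the highest Fabp7 (median 10185 TPM). Among radial glia-gated and Eomes-positive cells alone the Fabp7 difference was -0.83 (limma adjusted p = 0.892). The call was also lost with at least 1 of the 6 genes asked for (-0.74, limma adjusted p = 0.999). It was lost at a larger difference with at least 3 of the 6 (-3.79, limma adjusted p = 0.0851) and with ligand cells limited to fewer than 2 of the 6 (-3.58, limma adjusted p = 0.0801), and at a similar one with pool and suffix as units (-2.05, limma adjusted p = 0.703).

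Lastly, genes were ranked by their likeness to Hes5 and to Dll1, as Pearson r of log2(TPM + 1) over the 221 cells, which share pools and differ in the number of genes detected. Among 10745 genes the 5 closest to Hes5 were Zfp36l1, an RNA-binding protein (r = 0.701), Id1, an inhibitor of bHLH factors (0.626), Gpx8 (0.602), Sox9 (0.588) and the member Nrarp (0.576). Among the other members Notch1 had 0.566, Hey1 with 0.515, Hes1 with 0.515 and Notch2 with 0.415, while Dll3 (0.152), Mfng (0.18) and Dll1 (-0.01) had little likeness to Hes5. For Dll1 no gene exceeded 0.316 (B930003M22Rik, with which it shared 3 cells), followed by Otud3 (0.301), Iars2 (0.296), Dnajb14 (0.293) and Fkbp15 (0.293). With Dll1 in 15 cells these values are too weak to be read as a pattern.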

How the data were processed

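Expression was measured in 221 single cells. The deposited values are TPM, which the submitters' processing notes tie to Cufflinks 2.2.1, Bowtie2 2.2.6, TopHat2 2.0.14 and build mm10 without giving their roles. The authors' TPM values sum to 1000000 per cell over 23244 features, 92 of them spike-ins at the floor. A second deposited table with identical values was not used. Whether counting used strand is not given in the sources used here. No 2 cells correlated above 0.734 (Pearson r, log2 values), so no cell was entered again under another name.

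Cells were gated by 24 markers (in order: interneuron, Eomes, radial glia, Neurod1, excitatory), which were left out of the tests. Genes detected in at least 10 cells were kept, and groups with at least 4 cells in each pool. Profiles of mean log2(TPM + 1) were tested with limma 3.58.1 in R 4.3.3 (lmFit, eBayes with trend and robust), two-sided, all classes sharing 1 spread estimate. The code was tested on simulated data. The pool pairs the classes by design, since its cells share animals, and pool deviations correlated by 0.0044 to 0.0729 over 10 pairs of classes. The pool was not in the model and was tried as a block. Intervals are exact Clopper-Pearson at 95%, and limits for 0 use 3 counts. Promoters come from RefSeq (GRCm38.p6), with windows for 7 of 10 members.

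Named genes are the members, called or exemplary genes of the role lists, genes called between ligand groups and the 5 genes most like Hes5 and Dll1; Rnd3 and Gng5 were chosen after their values were seen. Members and lists were chosen with earlier results of these data known. Alternatives covered pseudocount, floor, averaging, filter, block, normalization, weights, units, gates, grouping and single pools. Chosen after seeing the data were the Neurod6 limit of 1000 TPM, the grouping without Hes5, radial glia-gated and Eomes-positive cells only, and leaving out the cell with microglia markers.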

Additional observations from a re-analysis of the deposited data

How the results depend on the processing

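Limits: depth is unknown. With 2 pools per class the p-values measure the spread between the 2 pool profiles of a class, shared over all groups of the fit. This spread holds the sampling of cells as well as differences between preparations. Refits with another radial glia gate also move cells out of or into the Neurod1-positive and excitatory neuron-gated classes. Class comparisons without radial glia-gated cells then change in their cells as well as in the shared spread estimate. Leaving out radial glia-gated cells by Neurod6 changes only that estimate there. In the comparison of radial glia-gated with excitatory neuron-gated cells (309 genes called) the count was 51 with the log2 of mean TPM, 202 with genes in at least 1 cell, 108 with cells of 3000 to 5500 genes, 6 and 779 with the radial glia gate at 4 and 6 of 8, and 647 without radial glia-gated cells at 1000 TPM of Neurod6. Eomes-positive against radial glia-gated cells (40) gave 0, 20, 12, 7, 284 and 183 in the same order, 24 with genes in at least 22 cells and 20 with profiles weighted by cell number; the 0 came with 1016 genes at an unadjusted limma p below 0.05. Eomes-positive against excitatory neuron-gated cells (7) gave 0 (936 unadjusted), 2, 1, 86, 2 and 2 in that order, 23 with at least 22 cells, 129 weighted, 2 each with pseudocount 10, the floor subtracted, quantile normalization or the interneuron gate at 5 of 8, 13 with pool and suffix as units, 41 without Neurod6 at 100 TPM, 11 without the cell with microglia markers and 4 with the pool as a replicate block. The block changed no other call among the members and no other count by over 1.5 times: it gave 315, 40, 2, 74 and 1 in the other comparisons. Neurod1-positive against Eomes-positive cells (2) gave 0 with the log2 of mean TPM (932 unadjusted), genes in at least 1 cell (1107), quantile normalization (949), 3000 to 5500 genes (800) and Neurod6 at 1000 TPM (785), 1 each with pseudocount 10 and pool and suffix, 50 weighted, 63 at 4 of 8 and 18 without Neurod6 at 100 TPM. Interneuron-gated against excitatory neuron-gated cells (71) gave 135 weighted, 127 with pool and suffix and 133 at 4 of 8. Ligand against receptor and target cells (1) gave 3 with the log2 of mean TPM, 26 with detection at 20 TPM, and 0 with pool and suffix (864 unadjusted), at least 1 of 6 (494), at least 3 of 6 (1598), ligand cells with fewer than 2 of the 6 (1453) and radial glia-gated and Eomes-positive cells only (588).

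Signs that turned were near 0, apart from some at 4 of 8. Between radial glia-gated and excitatory neuron-gated cells Dll1 was 0.04 at 4 of 8, and Mfng was 0.02 with pseudocount 10, 0.06 weighted, 0.02 with pool and suffix, 0.16 and 0.17 at 4 and 6 of 8, and 0.14 without Neurod6 at 1000 TPM. Between Eomes-positive and radial glia-gated cells at 4 of 8, Notch1 was 0.03, Hes5 0.66, Nrarp 0.62 and Dll3 0.05. The log2 of mean TPM gave 0.00 for Nrarp and 0.12 for Dll3, and 6 of 8 gave 0.02 for Dll3. Between interneuron-gated and excitatory neuron-gated cells Hey1 was -0.06 with the log2 of mean TPM and Nrarp -0.00 with pool and suffix. Mfng in ligand against receptor and target cells was -0.20 with ligand cells holding fewer than 2 of the 6. At a limit of 20 TPM the shares of cells were 7.69% for Notch1, 3.17% for Notch2, 15.8% for Hes1, 32.1% for Hes5, 3.62% for Dll1 and 0.905% for Jag1. The cause of these shifts was not tested. Comparisons with radial glia-gated cells were not run without Neurod6 at 100 TPM, which leaves 3 cells in pool 1, and a pool left out leaves values with no test.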
